A study of Homo sapiens with 8 samples.

Results

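HEK293T cells that carried a lentiviral shRNA were compared with HEK293T cells that had received a plasmid and were sorted by fluorescence 3 days later. HEK293T is a human embryonic kidney line that expresses the SV40 large T antigen. Of the 8 arrays in the series, 3 made up the shRNA arm and 5 the plasmid arm, so the comparison used every array. Membership followed the labelled delivery and not any measured value. The shRNA arm held 1 array of a control shRNA (shControl) and 1 array each of 2 shRNAs against TET1 (shTET1#1 and shTET1#2), and the labels describe these as clones. The plasmid arm held 1 array each of an empty vector (Vector control), 2 wild-type TET1 plasmids (TET1-CD and TET1-FL) and their catalytically mutant forms (mTET1-CD and mTET1-FL). Both arms were grown in the same serum-supplemented medium, RNA was taken with Trizol, and 100 ng per array was amplified and biotin-labelled.

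The arms differed in several ways at once. The clones carried an integrated lentivirus and the labels do not describe them as sorted, whereas the plasmid cells had met a transfection reagent (FuGENE HD) and a cell sorter. TET1 dose ran along the same line, since 2 of the 3 clones had TET1 targeted and 4 of the 5 plasmid arrays had TET1 supplied. The empty vector and the control shRNA, with neither, had 1 array each. No label names a hybridisation batch or separate cultures. Delivery, culture, sorting, TET1 dose and any batch therefore cannot be told apart. Each arm holds different shRNAs or plasmids with no repeat of any. The spread that the p-values below use is between these arrays. It includes differences between constructs and may in part be technical.

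A lentivirus inserts its genome into a chromosome, so an shRNA delivered this way is made for as long as the cells are grown. A plasmid stays outside the chromosomes and is diluted as the cells divide. Programmes that respond to a cell's handling and growth include the immediate early transcription factors, p53 targets, the ATF4 programme of amino acid supply, sterol synthesis, and the machinery of ribosomes, tRNA and cell division. TET1 itself is an enzyme that converts methylated cytosine in DNA to its oxidised forms.

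All values are deposited log2 expression values of transcript clusters, which are the array's gene-level units. Array values are listed in the order shControl, shTET1#1 and shTET1#2, then the vector, the CD plasmid in wild-type and mutant form, and the FL plasmid in wild-type and mutant form. In each array the median over all clusters lay between 5.47 and 5.55. Pearson correlations across kept clusters ran from 0.963 to 0.974 within the shRNA arm, from 0.958 to 0.988 within the plasmid arm and from 0.932 to 0.962 between the arms. All 8 arrays held different values. The vector array correlated at 0.953 to 0.959 with the clones and at 0.958 to 0.965 with the TET1 plasmid arrays. Of 11 measured genes typical of HEK293 cells, 10 lay above the array median on every array, and PAX8 on none. Their mean level was 7.65 to 7.70 on the clones and 7.61 to 7.86 on the plasmid arrays. The mean levels of markers of other cells overlapped between the arms, at 4.74 to 4.91 and 4.75 to 4.99 for 7 fibroblast genes and at 5.52 to 5.63 and 5.47 to 5.65 for 12 epithelial genes. For 5 blood genes the ranges were 5.43 to 5.56 and 5.48 to 5.90, and for 6 neuronal genes 5.78 to 6.01 and 5.89 to 6.03. Below the array median on every array were 6 of the epithelial, 4 of the fibroblast, 2 of the blood and 1 of the neuronal genes, among them KRT5, DCN, LYZ and MAP2. Others lay above it on every array, among them ESRP2 at 7.93 to 8.35, EPCAM at 6.25 to 7.60, CD68 at 6.19 to 7.77 and SYP at 6.79 to 7.47. The arrays are of bulk RNA, in which fewer cells of a type and less RNA per cell cannot be told apart.

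TET1 was read first, as the gene both arms were built to alter. Cluster 16715048 read 5.71, 5.27 and 6.20 on the clones, 5.86 on the vector array and 12.10, 12.03, 11.80 and 11.91 on the TET1 plasmid arrays. The second TET1 cluster, 16705381, read 9.29, 8.62 and 9.14 on the clones, 9.51 on the vector array and 10.42, 11.05, 12.22 and 12.47 on the TET1 plasmid arrays. The vector array thus lay among the clones in cluster 16715048 and above every clone in cluster 16705381. In both clusters it lay nearer the clones than the TET1 plasmids, and all 4 TET1 plasmids were higher. In cluster 16705381 both TET1 shRNA arrays lay below shControl, while in cluster 16715048 shTET1#2 was the highest of the clones. The sources used here do not give the transcript regions that these clusters cover.

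FN1 and INSIG1 had been given as markers of delivery. FN1 encodes fibronectin, a protein of the extracellular matrix, and read 7.24, 7.46 and 7.46 on the clones against 8.89, 7.69, 7.69, 8.40 and 8.44 on the plasmid arrays. The groups did not overlap, with the vector array highest and the CD arrays just above the clones. The difference of 0.84 (SE 0.269) had an adjusted p of 0.111 in limma and missed the threshold of 0.05. INSIG1, a sterol-regulated protein that retains SREBP in the endoplasmic reticulum, read 9.42, 9.87 and 9.87 on the clones and 10.82, 9.60, 9.79, 10.28 and 10.29 on the plasmid arrays. Here the groups overlapped, since both CD arrays lay within the clones' range, and the difference of 0.44 (SE 0.262) had an adjusted p of 0.359. The vector array lay on the plasmid side for both genes, at 1.51 and 1.11 above the clones' mean. Neither gene therefore passed the test between the arms, and only FN1 had arms that did not overlap.

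**Figure D1:**
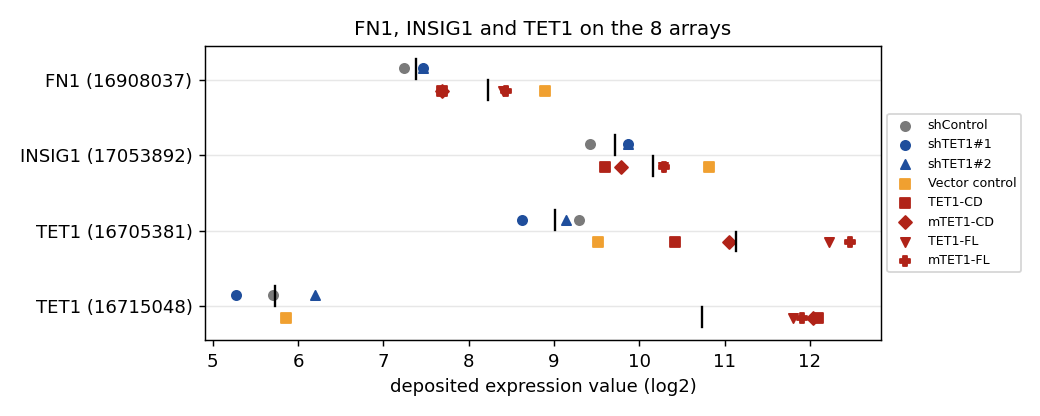
Deposited log2 values of FN1, INSIG1 and the TET1 clusters on the 8 arrays, 1 point per array, with a black bar at the mean of each arm. The vector array has the highest FN1 and INSIG1 value and lies nearer the clones than the TET1 plasmids for TET1.

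Over all genes, the plasmid arrays were compared with the clones in 1 fit. Of 28946 kept clusters, 691 were called higher on the plasmid arrays (2.39%) and 544 lower (1.88%), by limma with a Benjamini-Hochberg adjusted p under 0.05. At least 2-fold differences made up 215 of the higher and 65 of the lower clusters, and the median called difference was 0.79 and -0.65. The arms did not overlap in 690 of the 691 and in all 544. Without any test, 2369 kept clusters (8.18%) had every plasmid array above every clone and 2220 (7.67%) the reverse. Among 10797 genes with a name, 246 were called higher (2.28%) and 231 lower (2.14%), and 952 (8.82%) and 993 (9.2%) did not overlap in those directions. These counts rested on which arrays entered: 1410 and 864 were called without the vector array, but only 121 to 310 and 65 to 225 without any 1 of the other 7. In all 8 such fits, 76 clusters were called higher and 39 lower. In 89 of the 691 higher clusters every clone lay at or below its array's median, and in 36 of the 544 lower ones every plasmid array did. These clusters entered the test only through the arm where they were brighter, and signal near background limits the size of their differences. They include GNAS-AS1, ENPP2, HORMAD1, ADAM20, LINC00640, SCARNA15, MIR7-3HG and the GAGE12C cluster below, whose differences and p-values carry this limit.

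The vector array shares its delivery with the other plasmid arrays and carries no TET1 plasmid, so its position was read for each gene. It lay nearer the TET1 plasmid arrays than the clones in 561 of the 691 higher clusters (81.2%) and in 517 of the 544 lower ones (95%). These shares describe clusters chosen with the vector array among the plasmid arrays. Set alone against the clones, with its spread taken from the other groups, the vector array had 11 clusters called higher (0.038%) and 7 lower (0.0242%). The 4 TET1 plasmid arrays against the same clones had 1410 higher (4.87%) and 864 lower (2.98%). Both comparisons use the same clones, so their calls are not independent. Between the vector and control shRNA arrays, which have 1 array a side and no test, 604 clusters were at least 2-fold higher on the vector array (2.09%) and 711 at least 2-fold lower (2.46%).

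The genes furthest above the clones on all 5 plasmid arrays were a mixed group of non-coding RNAs, stress-response factors and genes best known from germline or neural tissue. GNAS-AS1, a non-coding RNA antisense to GNAS at an imprinted locus, read 4.66, 4.66 and 4.84 on the clones and 8.07, 7.43, 7.40, 7.70 and 7.67 on the plasmid arrays. The difference of 2.93 (SE 0.155) had a limma adjusted p of 0.000213. The vector array was the highest of all, at 3.35 above the clones (adjusted p = 0.00183). Whether the array's probes tell the strands of this locus apart is not given in the sources used here.

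GPR50, an orphan receptor related to the melatonin receptors, read 6.25, 6.94 and 6.87 on the clones and 9.17, 9.10, 9.38, 9.93 and 9.89 on the plasmid arrays (2.80, SE 0.243, limma adjusted p = 0.00192). All 5 plasmid arrays lay more than 2 log2 units above every clone. ENPP2, which encodes autotaxin, the enzyme that makes lysophosphatidic acid, read 4.65, 4.73 and 4.60 on the clones and 6.39, 6.33, 6.26, 6.26 and 6.45 on the plasmid arrays. Its SD was 0.0665 among the clones and 0.0853 among the plasmid arrays, and its difference was 1.68 (SE 0.0900, limma adjusted p = 0.000213). ZC3H6, a CCCH zinc finger protein, read 6.46, 7.01 and 6.71 against 8.68, 8.68, 8.33, 8.59 and 8.51 (1.83, SE 0.14, limma adjusted p = 0.00125). The vector array stood with the TET1 plasmids in each of these genes, as the rule that named them required.

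HORMAD1, a protein of meiotic chromosome axes that is silent in most somatic tissue, read 4.36, 4.94 and 4.85 on the clones and 6.53, 7.50, 6.73, 6.47 and 6.73 on the plasmid arrays. The TET1-CD array was highest, and the other plasmid arrays kept within a narrow range. ADAM20, a testis protease, read 4.08, 4.75 and 4.00 against 5.57, 5.87, 5.75, 6.19 and 6.07, and its near-identical pseudogene ADAM20P1 read 6.08, 6.06 and 5.59 against 7.44, 7.84, 7.65, 7.93 and 7.81. Which of these copies gives the signal is uncertain. ULBP1, a ligand of the natural killer cell receptor NKG2D, read 5.99, 6.08 and 4.54 against 6.95, 7.49, 6.53, 7.12 and 7.01, and the low shTET1#2 value widened its spread. Its difference of 1.48 (SE 0.349) had a limma adjusted p of 0.0496.

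CREBRF, a regulator of the CREB3 transcription factor, read 6.22, 6.06 and 6.37 on the clones and 7.16, 7.83, 7.59, 8.21 and 8.15 on the plasmid arrays. LOC100272217, a non-coding RNA, read 5.68, 5.33 and 5.10 against 6.49, 6.61, 6.68, 8.25 and 7.93. In both, the FL arrays were highest and the vector array lowest of the plasmid arm, although above every clone, as the naming rule required.

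**Figure D2:**
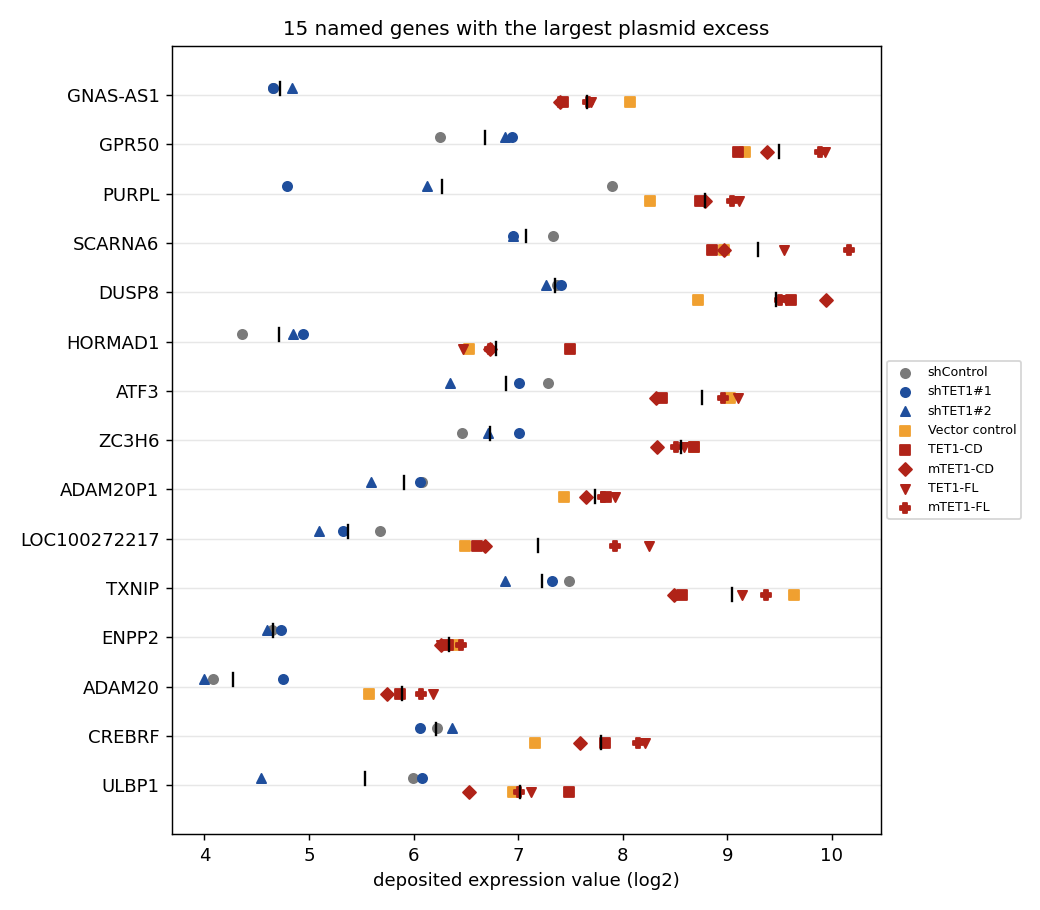
Deposited log2 values on the 8 arrays of the 15 named genes called higher with the largest difference, the vector array lying on the plasmid side, with black bars at the mean of each arm. Genes were chosen so that all plasmid arrays lie to the right of all clones, and the difference is largest for GNAS-AS1 at 2.93.

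Few named clusters were called for the vector array alone. Besides GNAS-AS1, ENPP2 and ZC3H6 these were the non-coding RNAs MALAT1 and LINC00640 on the higher side, and TRMO and GAGE12C on the lower. MALAT1, LINC00640, TRMO and GAGE12C were outside the rule for naming genes and are named after their values were seen. MALAT1, an abundant nuclear RNA, read 9.63, 9.76 and 9.65 on the clones and 10.88, 10.72, 10.71, 10.78 and 10.91 on the plasmid arrays in its brightest cluster, and the vector array was 1.20 above the clones (limma adjusted p = 0.0479). Its 2 other clusters lay 0.84 and 1.13 above on the vector array, with adjusted p of 0.183 and 0.134, so all 3 had the same sign. TRMO, a tRNA methyltransferase, was the reverse case: the clones read 7.17, 7.17 and 7.16, the vector array 6.00 and the TET1 plasmid arrays 6.95, 6.93, 6.83 and 6.93. Only the vector array stood far below, at -1.16 (limma adjusted p = 0.0408).

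Small Cajal body RNAs guide the chemical modification of spliceosomal RNAs, and their list was put together after its values were seen. Of 22 kept members, 4 were called higher and 0 lower (18.2% against 2.28% of named genes). The arms did not overlap in 9, where 8.82% of named genes did not in this direction. A positive difference was found in 20, against 5521 of 10797 named genes. The median was 0.45, against 0.00727 for all named genes. SCARNA6 read 7.33, 6.95 and 6.95 on the clones and 8.97, 8.85, 8.97, 9.54 and 10.16 on the plasmid arrays (2.22, SE 0.289, limma adjusted p = 0.0099). SCARNA10 read 7.34, 7.27 and 7.47 against 8.45, 8.43, 8.58, 8.94 and 9.18, with SCARNA15 and SCARNA2 at 0.94 and 0.57. The median was 0.55 on the vector array alone and 0.42 on the TET1 plasmid arrays. Relative to each gene's own mean over the 8 arrays, the list's median was -0.29, -0.18 and -0.35 on the clones, 0.26 on the vector array and -0.15, 0.00822, 0.38 and 0.40 on the TET1 plasmid arrays, so TET1-CD lay close to the highest clone.

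Among immediate early genes, 3 of 23 kept members were called higher and 0 lower (13% against 2.28% of named genes). ATF3, a stress-induced repressor that also belongs to the ATF4 list, read 7.29, 7.01 and 6.35 on the clones and 9.03, 8.38, 8.32, 9.10 and 8.96 on the plasmid arrays (1.88, SE 0.258, limma adjusted p = 0.0121). KLF10, a zinc finger factor of the TGF-beta response, read 7.96, 8.15 and 8.32 against 9.88, 9.19, 9.05, 9.89 and 9.87. JUN, a subunit of AP-1, read 9.46, 9.80 and 9.34 against 10.70, 10.17, 10.45, 10.72 and 10.83. In all of these the vector array lay with the FL arrays, above the CD arrays. FOS, the usual partner of JUN, went the other way in its brighter cluster, at 8.02, 8.22 and 7.26 against 6.97, 6.54, 6.68, 7.48 and 7.38, a difference of -0.83 that did not pass (limma adjusted p = 0.122). EGR1 had a difference of -0.64 and MYC one of -0.29, with adjusted p of 0.226 and 0.407. The list's median of 0.35 thus held members on both sides of 0.

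The dual-specificity phosphatases, which switch off MAP kinases and were listed after their values were seen, had 3 members called higher and 1 lower of 20 kept (15% and 5%, against 2.28% and 2.14% of named genes). DUSP8, which acts on JNK and p38, read 7.37, 7.41 and 7.27 on the clones and 8.72, 9.61, 9.94, 9.56 and 9.5 on the plasmid arrays (2.12, SE 0.233, limma adjusted p = 0.00495). Its vector value lay below those of the TET1 plasmids but well above every clone. DUSP16 and DUSP10, of the same preference, were higher by 0.85 and 0.82, while DUSP7, an ERK phosphatase, was lower by 0.51.

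Of the 7 genes of the MondoA list 1 was called higher (14.3% against 2.28% of named genes). This was TXNIP, an arrestin-family protein that limits glucose uptake. It read 7.49, 7.32 and 6.87 on the clones and 9.64, 8.57, 8.49, 9.14 and 9.37 on the plasmid arrays (1.82, SE 0.278, limma adjusted p = 0.0177), the vector array being highest. Its second cluster was at 1.36, with an adjusted p of 0.0539. The related ARRDC4 was also highest on the vector array, with 9.93 on the vector array and 8.24, 8.76 and 8.08 on the clones, but overlapped between the arms through TET1-CD and mTET1-CD and did not pass (limma adjusted p = 0.141). ARRDC3 read 8.13 on the vector array and 8.73 to 9.87 on the TET1 plasmids, with the clones at 7.39 to 8.04.

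The hypoxia, autophagy, interferon and YPEL lists gave 1 or 2 called genes each. Called higher were 5.56%, 5%, 5.88% and 50% of their kept members in turn, against 2.28% of named genes. Called lower were 5.88% of the interferon list, against 2.14% of named genes. NDRG1, a hypoxia-induced gene, was higher by 0.95 and was the called gene among 18 of the hypoxia list. GABARAPL1, an autophagosome protein, was higher by 1.01 as the called gene among 20 of the lysosome and autophagy list. IFITM1, an interferon-induced membrane protein, was higher by 1.13, while EIF2AK2, the RNA-activated kinase PKR, was lower by 0.34, and no other of the 17 kept interferon genes was called. YPEL3 and YPEL5, small zinc-binding proteins, were higher by 1.06 and 1.01, as 2 of the 4 kept members of a family listed after its values were seen. All of these had the vector array on the plasmid side.

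On the lower side, 4 named genes were at least 2-fold lower in their brightest cluster, against 52 at least 2-fold higher, while over all clusters the largest called differences were -4.24 and 3.3. AMOT, a scaffold at cell junctions that binds YAP, had the largest of the 4: 11.05, 10.83 and 11.61 on the clones and 10.14, 10.15, 10.16, 9.57 and 9.72 on the plasmid arrays (-1.22, SE 0.208, limma adjusted p = 0.0233). ADI1, an enzyme of methionine salvage, read 8.90, 9.02 and 9.02 against 7.55, 8.30, 8.13, 7.77 and 8.01. NBN, a subunit of the MRE11 complex that binds broken DNA, read 8.95, 9.07 and 8.64 against 7.93, 8.09, 8.10, 7.56 and 7.67. The vector array was lowest for ADI1 and lay within the TET1 plasmids for AMOT and NBN.

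Genes of signalling and the cell surface were also among the lowest. SMAD6, the inhibitory SMAD of BMP signalling, read 7.66, 7.32 and 7.25 on the clones and 6.39, 6.49, 6.64, 6.43 and 6.38 on the plasmid arrays (-0.94, SE 0.119, limma adjusted p = 0.0090). It was the called member of 13 kept genes of the TGF-beta and BMP list (7.69% against 2.14% of named genes). ANTXR1, a receptor of anthrax toxin that binds collagen, read 8.39, 8.46 and 8.46 against 7.71, 7.58, 7.56, 7.50 and 7.41, with an SD of 0.0394 among the clones. GPLD1, a phospholipase that releases GPI-anchored proteins, had a difference of -0.93, and PCDH7, a protocadherin, one of -0.87. FAIM, an inhibitor of Fas-induced death, was at -0.93, MTARC1, a mitochondrial reductase, at -0.89 and ZNF320, a zinc finger protein, at -0.99. No plasmid array of any of these genes reached a clone, as the rule that named them required.

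MIR17HG, the host transcript of the miR-17-92 cluster, was lower on every plasmid array, and its microRNAs are given to show what the transcript carries. The mature sequences are RefSeq's (GRCh38.p14), with the seed, bases 2 to 8, in capitals. All 6 hairpins lie within MIR17HG on chromosome 13, from miR-17-5p at chr13:91350618-91350640 to miR-92a-3p at chr13:91351361-91351382 on the plus strand.
miR-17-5p: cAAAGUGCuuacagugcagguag
miR-20a-5p: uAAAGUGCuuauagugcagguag
miR-18a-5p: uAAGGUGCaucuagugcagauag
miR-19a-3p: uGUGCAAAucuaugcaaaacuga
miR-19b-3p: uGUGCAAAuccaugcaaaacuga
miR-92a-3p: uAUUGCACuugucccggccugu
The first 2 share 1 seed, as do miR-19a-3p and miR-19b-3p, and the remaining 2 have a seed of their own here. The MIR17HG cluster read 8.22, 8.41 and 8.27 on the clones and 7.67, 7.22, 7.39, 7.32 and 7.09 on the plasmid arrays (-0.96, SE 0.134, limma adjusted p = 0.0125). The vector array was nearest to the clones and still below all of them. The value is of the host transcript, and the levels of the mature microRNAs were not measured by it.

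Genes that build ribosomes and modify tRNA were lower in larger shares than named genes at large. Both lists were put together after their values were seen. Of 57 kept genes of ribosome assembly, 6 were called lower and 0 higher (10.5% against 2.14% of named genes), with a median of -0.19. RRS1, which joins the 5S particle to the large subunit, read 8.56, 8.54 and 8.46 on the clones and 7.25, 7.77, 7.85, 7.83 and 7.38 on the plasmid arrays (-0.90, SE 0.157, limma adjusted p = 0.0237). NCL, nucleolin, read 10.19, 9.83 and 9.96 against 9.42, 9.41, 9.38, 9.47 and 9.40. PWP1 and NIP7 were at -0.57 each, and EXOSC5 and NOP10 at -0.43 each. The median was -0.40 on the vector array alone and -0.16 on the TET1 plasmid arrays. Against the vector array, 47 of 57 members were higher on the TET1 plasmids, where 5513 of 10797 named genes were. None of those differences passed in limma, where the vector array stands alone.

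Of 46 kept genes of RNA polymerase III and tRNA modification, 8 were called lower and 2 higher, with a median of -0.18. These shares are 17.4% and 4.35%, against 2.14% and 2.28% of named genes. POLR3B, the second-largest polymerase III subunit, read 9.22, 9.37 and 9.04 on the clones and 7.85, 8.56, 8.58, 8.10 and 7.73 on the plasmid arrays (-1.04, SE 0.213, limma adjusted p = 0.0364). TRUB2, a mitochondrial pseudouridine synthase, read 9.41, 9.22 and 9.14 against 7.87, 8.61, 8.71, 8.13 and 8.20. WDR4, a partner in tRNA 7-methylguanosine formation, read 8.14, 8.02 and 7.84 against 7.15, 7.34, 7.46, 6.74 and 6.90. LCMT2, which acts in wybutosine synthesis, was at -0.81 and METTL2A at -0.55. TRIT1, which adds the isopentenyl group to tRNA, went the other way at 0.79, and its vector array lay nearer the clones.

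Genes of the cytoplasmic ribosomal proteins and of oxidative phosphorylation gave no calls in limma. Of 31 kept cytoplasmic ribosomal protein genes 4 had an unadjusted p under 0.05, and their median was 0.0455. For 11 kept genes of oxidative phosphorylation this count was 2, with a median of 0.0165. Over the whole table, 6596 kept clusters had such a p (22.8%). The 71 kept mitochondrial ribosomal genes, listed after their values were seen, had 4 called lower and 1 higher and a median of -0.13. These shares are 5.63% and 1.41%, against 2.14% and 2.28% of named genes.

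The GAGE genes, testis antigens that lie in near-identical tandem copies on the X chromosome, were called lower on the plasmid arrays in 10 of 11 kept clusters. Of all kept clusters, 1.88% were called lower. Differences over all 11 ran from -1.98 to -0.54. The clusters carry 6 symbols, and 3 have values identical to another, so they count as a family and not as separate genes. In the cluster named GAGE12C (17103653) the clones read 6.58, 7.05 and 6.70 and the plasmid arrays 4.39, 5.21, 4.83, 4.91 and 4.66. The vector array was the lowest, at -2.39 from the clones (limma adjusted p = 0.0408). Which copy gives the signal is uncertain.

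**Figure D3:**
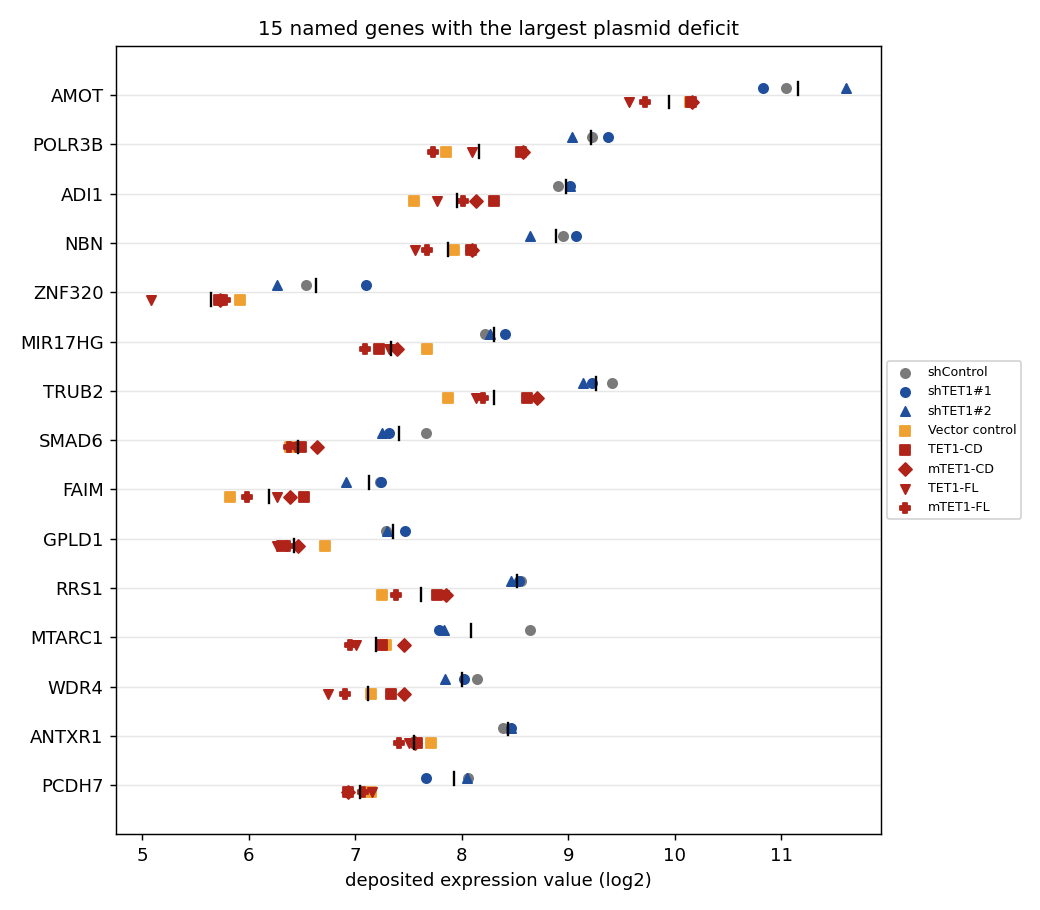
Deposited log2 values on the 8 arrays of the 15 named genes called lower with the largest difference, the vector array lying on the plasmid side, with black bars at the mean of each arm. Genes were chosen so that all plasmid arrays lie to the left of all clones, and the difference is largest for AMOT at -1.22.

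The HOX, HEK and NRF2 lists gave 1 or 2 calls each. HOXD4 read 8.51, 8.04 and 8.42 on the clones and 7.78, 7.45, 7.62, 7.25 and 7.27 on the plasmid arrays in its brighter cluster, and HOXA2 was at -0.83. These were the called members among 26 kept HOX genes (7.69% against 2.14% of named genes), a list chosen after its values were seen. SIX2, a factor of nephron progenitors, was at -0.67 as the called member among 10 kept genes of the HEK list (10% against 2.14%). That list had a median of 0.0218, with 7 members above 0. In the same list EYA1 read 6.31, 8.19 and 7.66 against 8.34, 8.20, 8.15, 8.65 and 8.65, and was not called. The antioxidant genes PRDX1 and TXNRD1, targets of NRF2, were lower by 0.75 and 0.49. They were 2 of 8 kept members (25% against 2.14% of named genes), and no other was called.

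Mitotic genes gave calls for the TET1 plasmid arrays and none for the vector array alone, and none passed the test between these. Proteins of the G2 and M phases build the spindle, separate chromosomes and complete division, and many of their promoters are held by the DREAM and MuvB complexes at an element written TTTGAA, with CCAAT boxes nearby. Of 30 kept G2/M genes, 8 were called higher in plasmid minus shRNA and 0 lower (26.7% against 2.28% of named genes), 28 had a positive difference, and the arms did not overlap in 11, against 8.82% of named genes in this direction. The median was 0.42 on all plasmid arrays, 0.0439 on the vector array alone and 0.51 on the TET1 plasmids. Against the clones, 16 members were called higher by limma on the TET1 plasmids, where 5.41% of named genes were, and 0 on the vector array (6 at an unadjusted p under 0.05). Without the vector array 16 were called in the 2-arm comparison, and without any 1 of the other 7 arrays 0 to 2.

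The TET1 plasmids were therefore set directly against the vector array. In 29 of 30 members the TET1 plasmids were higher, against 5513 of 10797 named genes. The median was 0.46, against 0.00545 for all named genes. None passed the threshold in limma with 1 vector array, where the lowest adjusted p was 0.0693. At an unadjusted p under 0.05 there were 20, against 1654 of 10797 named genes. Relative to each gene's mean over the 8 arrays, the list's median was -0.25, -0.16 and -0.35 on the clones, -0.22 on the vector array and 0.34, 0.22, 0.18 and 0.24 on the TET1 plasmids. The vector array thus lay inside the range of the clones, and all 4 TET1 plasmids, wild-type and mutant, lay above it.

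The stretch of 140 bases before the RefSeq start (GRCh38.p14) is shown for 4 G2/M genes. They were called on the TET1 plasmids, have 1 listed start and hold both TTTGAA and CCAAT. Capitals mark TTTGAA and CCAAT on either strand, the latter read as ATTGG where reversed, and the sequences run 5′ to 3′ on the gene's strand.
CENPA (chr2:26785916-26786055, plus strand): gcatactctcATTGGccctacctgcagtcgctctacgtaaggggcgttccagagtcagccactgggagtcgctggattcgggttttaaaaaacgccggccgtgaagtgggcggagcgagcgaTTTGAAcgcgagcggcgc
PRC1 (chr15:90994536-90994675, minus strand): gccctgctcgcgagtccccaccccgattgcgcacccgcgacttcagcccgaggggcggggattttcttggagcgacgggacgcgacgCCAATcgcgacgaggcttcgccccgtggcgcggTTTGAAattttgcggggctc
PLK1 (chr16:23678749-23678888, plus strand): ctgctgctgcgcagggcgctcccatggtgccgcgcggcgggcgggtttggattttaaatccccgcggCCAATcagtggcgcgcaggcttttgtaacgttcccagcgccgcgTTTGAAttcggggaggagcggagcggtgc
HMMR (chr5:163460492-163460631, plus strand): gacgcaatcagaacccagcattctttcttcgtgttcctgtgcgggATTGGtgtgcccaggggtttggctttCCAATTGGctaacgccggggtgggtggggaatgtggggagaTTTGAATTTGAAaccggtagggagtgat
In each, TTTGAA lies close to the start with CCAAT further upstream, and HMMR holds TTTGAA in tandem and overlapping CCAAT and ATTGG letters. Over the 250 bases upstream of any listed start, TTTGAA was found on either strand in 15 of the 25 G2/M genes with a promoter entry, CCAAT in 23 and both in 14 (56.0%). Of the 14 such genes called on the TET1 plasmids against the clones, these counts were 8, 13 and 8 (57.1%), so the called genes had a similar share. Among all 8288 kept named genes with an entry, the shares were 11.7%, 40.4% and 4.72%. Among all 27305 genes with a listed promoter they were 16.1%, 37.0% and 5.79%. Of 20 G1/S genes, 1 held TTTGAA and 13 held CCAAT. A match of letters is a description and not a measured binding site.

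CENPA, the histone H3 variant of centromeres, read 8.09, 8.41 and 8.14 on the clones, 8.53 on the vector array and 8.85, 8.79, 8.79 and 8.88 on the TET1 plasmids (plasmid minus shRNA 0.56, SE 0.117, limma adjusted p = 0.0391). PRC1, a microtubule bundler of the central spindle, read 10.42, 10.49 and 10.42 against 10.75 and then 11.11, 11.16, 10.95 and 11.03. For both the vector array lay between the groups. PLK1, a mitotic kinase, read 11.35, 11.46 and 11.01 on the clones, 11.28 on the vector array and 12.10, 12.06, 11.90 and 11.87 on the TET1 plasmids. HMMR, a spindle and hyaluronan-binding protein, read 8.64, 8.17 and 8.33, then 8.53, then 10.04, 9.77, 9.73 and 9.66. The vector array of PLK1 and HMMR lay among the clones, and these genes missed the threshold for all plasmid arrays (limma adjusted p of 0.127 and 0.0639) while passing for the TET1 plasmids against the clones (0.71 and 1.42, adjusted p of 0.0204 and 0.00307).

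In all 8 called members the vector array lay above every clone, as it did in 690 of the 691 clusters called higher. In PTTG1, KIF2C, CENPA and PRC1 it lay nearer the TET1 plasmids than the clones, as in 81.2% of those clusters. The called members with the largest differences were CDC25C, the phosphatase that activates CDK1, and PTTG1, or securin. CDC25C read 7.23, 6.84 and 7.06 on the clones, 7.59 on the vector array and 8.53, 8.38, 8.14 and 8.17 on the TET1 plasmids (1.12, SE 0.200, limma adjusted p = 0.0249). PTTG1 read 6.52, 6.38 and 6.25, then 7.20, then 7.35, 7.09, 7.88 and 7.56 (1.03, SE 0.177, limma adjusted p = 0.0233), and here the vector array lay within the TET1 plasmids. BIRC5, AURKB and KIF2C, which serve chromosome attachment, were higher by 0.75, 0.70 and 0.60, and TOP2A, which untangles DNA, by 0.50. The mitotic kinase CDK1 and its cyclin CCNB1 did not pass, at 0.19 and 0.17 (limma adjusted p of 0.404 and 0.646). CCNB1 read 8.45, 8.66 and 8.41 on the clones, 8.10 on the vector array and 8.75, 8.99, 8.77 and 8.78 on the TET1 plasmids, and for CDK1 too every TET1 plasmid array lay above every clone, with the vector array at -0.0915 from their mean.

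**Figure D4:**
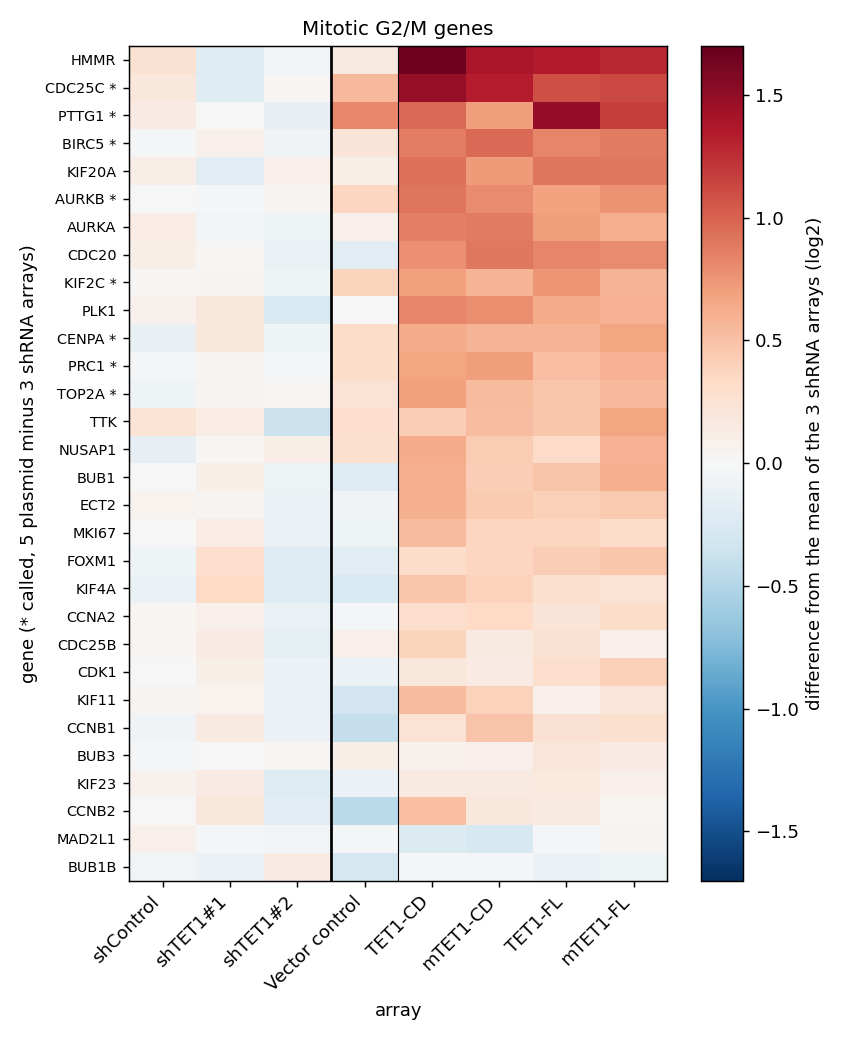
Difference of each array from the mean of the 3 shRNA arrays for the 30 kept G2/M genes (log2 colour scale), ordered by plasmid minus shRNA, with lines on either side of the vector array and asterisks at the 8 genes called in plasmid minus shRNA. The 4 TET1 plasmid columns are red in most rows, and the vector column is pale or blue in many of them.

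The replication and G1/S list did not show this pattern. Of 24 kept members, CDT1, which licenses origins, was higher by 0.99, and CCNE2 and TYMS, a cyclin and thymidylate synthase, were lower by 0.46 and 0.47. These called members were 4.17% and 8.33% of the list, against 2.28% and 2.14% of named genes. The median was -0.0835. CDT1 was highest on the vector array, at 9.81 against 9.06 to 9.63 on the TET1 plasmids and 8.29 to 8.53 on the clones.

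Of 18 kept genes activated by p53, 2 were called higher in plasmid minus shRNA and 0 lower (11.1% against 2.28% of named genes), with a median of 0.55 and 16 positive differences. Their median was 0.0933 on the vector array and 0.64 on the TET1 plasmids, where 10 were called higher against the clones (5.41% of named genes were). Set against the vector array, the TET1 plasmids had a median of 0.70. Of 18 differences 15 were positive, against 5513 of 10797 named genes. None passed in limma, where the vector array stands alone. PURPL, a non-coding RNA under p53, read 7.90, 4.79 and 6.13 on the clones and 8.26, 8.74, 8.79, 9.11 and 9.05 on the plasmid arrays. The clones differed widely (SD 1.56), with shControl close to the vector array, so its difference of 2.52 has an SE of 0.565 (limma adjusted p = 0.0443). PURPL and SPATA18 were the called members, and in both the vector array lay on the plasmid side. SPATA18, which acts in mitochondrial quality control, read 6.65, 6.37 and 6.02 against 6.92, 7.57, 7.35, 7.50 and 7.36. GDF15, a secreted stress cytokine, read 6.57, 6.77 and 7.18, then 7.38, then 8.36, 8.12, 9.11 and 9.10, and missed the threshold narrowly (limma adjusted p = 0.0512). PLK2, a polo-like kinase, read 5.84, 5.07 and 4.98, then 5.69, then 6.85, 6.53, 8.08 and 7.90. For PLK2 the vector array lay inside the clones' range, and for GDF15 just above it.

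The genes called in plasmid minus shRNA whose vector array lay nearer the clones were led by MIR7-3HG, LIN37, MIR1204, EMC9 and LRP4-AS1. LIN37, a subunit of the MuvB complex named above, read 8.39, 8.54 and 8.45 on the clones, 9.11 on the vector array and 10.34, 10.01, 10.24 and 10.06 on the TET1 plasmids. Against the vector array the TET1 plasmids were higher by 1.05 (limma adjusted p = 0.0696). EMC9, of the complex that inserts membrane proteins into the endoplasmic reticulum, read 7.46, 7.62 and 7.04, then 7.99, then 8.88, 8.96, 8.98 and 8.97. MIR7-3HG, the host of a miR-7 copy, read 5.14, 5.41 and 5.43, then 5.92, then 7.73, 7.26, 7.43 and 7.03. In each of these the vector array lay above every clone and below every TET1 plasmid array. MIR1204 and LRP4-AS1, both non-coding, were at 1.39 and 1.31 over all plasmid arrays and at 0.47 and 0.70 on the vector array.

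On the lower side this group was MIR3942, TMEM177, TARBP1, CYFIP1 and CPOX. CYFIP1, of the WAVE complex that nucleates actin, read 8.03, 7.99 and 8.01 on the clones, 7.78 on the vector array and 7.32, 7.30, 7.23 and 7.32 on the TET1 plasmids. Differences over all plasmid arrays were -0.99 for MIR3942, -0.65 for TMEM177, which acts in the assembly of cytochrome oxidase, -0.62 for TARBP1, a tRNA methyltransferase, and -0.61 for CPOX, of haem synthesis. None of the 10 genes of this kind passed in TET1 plasmids minus vector.

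In the matrix and ATF4 lists the median was highest on the vector array, with no member passing a test of that array. This was not particular to them. Relative to each gene's mean over the 8 arrays, the vector median was 0.41 for matrix and 0.29 for ATF4. It was also the highest for fibroblast markers (0.31), matrix-processing enzymes (0.25), hypoxia (0.17), integrins (0.16), endoplasmic reticulum folding (0.1), YAP targets (0.099) and oxidative phosphorylation (0.038). The extracellular matrix list had 0 of 11 kept members called in plasmid minus shRNA by limma (4 at an unadjusted p under 0.05). Its median was 0.50 on the vector array and 0.13 on the TET1 plasmids. On the TET1 plasmids 0 of 11 were higher than on the vector array, against 5513 of 10797 named genes. NID1, a basement membrane linker, read 9.77, 9.69 and 9.63 on the clones, 10.21 on the vector array and 9.58, 9.65, 9.69 and 9.64 on the TET1 plasmids. NID2 had the same shape, at 7.71, 7.59 and 7.21, then 8.22, then 7.24 to 7.52. FN1, the delivery marker, was the member with the largest vector minus shRNA difference. None of the 11 passed in limma for vector minus shRNA or for TET1 plasmids minus vector, where the vector array stands alone.

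The 18 kept members of the ATF4 list of amino acid and stress genes had a median of 0.59 on the vector array and 0.0815 on the TET1 plasmids, and of 0.76 between the vector and control shRNA arrays. No member passed in limma for vector minus shRNA or for TET1 plasmids minus vector, where the vector array stands alone. Called in plasmid minus shRNA were ATF3 and DDIT3, the pro-apoptotic factor CHOP, which read 5.71, 5.88 and 5.39 on the clones and 6.63, 6.58, 6.57, 7.63 and 7.60 on the plasmid arrays (1.34, SE 0.294, limma adjusted p = 0.0421), 11.1% of the list against 2.28% of named genes. For both, at least 1 TET1 plasmid array lay above the vector array. ASNS, asparagine synthetase, read 8.33, 8.93 and 8.19, then 9.32, then 8.52, 8.43, 8.59 and 8.64, and TRIB3, a pseudokinase induced by ATF4, 7.09, 7.44 and 7.19, then 7.86, then 7.25 to 7.72. In both, the vector array was the highest of the 8, and neither passed (limma adjusted p of 0.631 and 0.257). On the clones the list was uneven too, with shTET1#1 at 0.17 relative to each gene's mean and shControl and shTET1#2 at -0.13 and -0.22.

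The sterol and SREBP list, which holds INSIG1, had 1 member called higher and 2 lower of 25 kept. These shares are 4% and 8%, against 2.28% and 2.14% of named genes. STARD4, a sterol carrier, was higher by 0.55, and ACAT2 and ELOVL6, of acetyl-CoA and fatty acid metabolism, were lower by 0.43 and 0.53. The list's median was 0.0846 on the vector array and -0.0988 on the TET1 plasmids. INSIG1 therefore did not stand for its list. In the other lists no member was called by limma in plasmid minus shRNA. At an unadjusted p under 0.05 the counts were 3 of 11 for matrix-processing enzymes, 2 of 10 for integrins, 2 of 8 for SRF and actin targets and 2 of 11 for YAP targets. They were 1 of 10 for endoplasmic reticulum folding, 4 of 10 for heat shock, 4 of 8 for NF-kB targets, 4 of 14 for DNA methylation and its readers and 2 of 6 for sterol export. Of the kept markers of epithelial cells (6), fibroblasts (2), blood cells (3) and neurons (4), 0 had such a p.

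**Figure D5:**
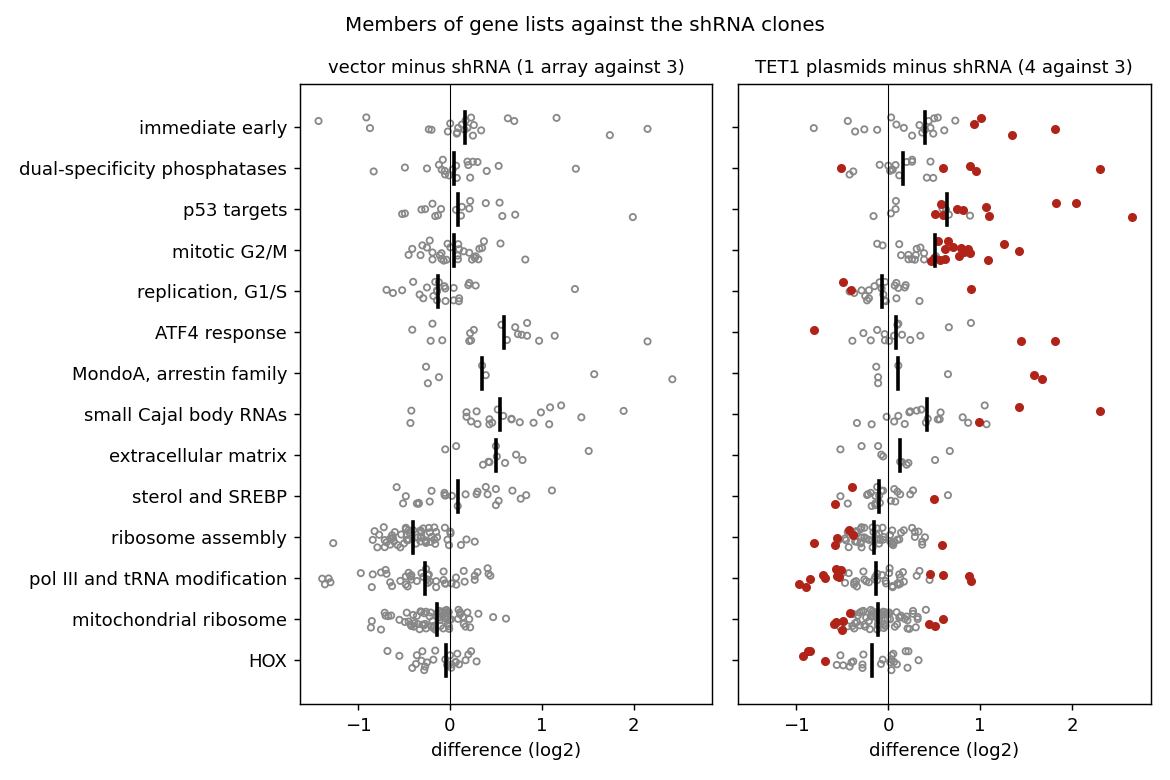
Difference from the clones for the members of 14 gene lists, for the vector array (left) and the mean of the 4 TET1 plasmid arrays (right), with 1 circle per kept gene, filled where called by limma, and a black bar at each list's median. The medians of the mitotic and p53 lists lie at 0.0439 and 0.0933 on the left and at 0.51 and 0.64 on the right. Those of the matrix and ATF4 lists, among others, are larger on the left.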

How the data were processed

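Total RNA of 8 HEK293T samples was measured on 1 Affymetrix array each. The deposited values are log2 expression values. RMA and Affymetrix Expression Console 1.3.1 are the tools listed in the submitters' processing notes, with no role or order. RMA corrects background, normalizes between arrays and summarises probes. Their genome build is not given in the sources used here. Of the table's 53981 rows, 364 were empty. Of 53617 transcript clusters, 16098 had 1 gene symbol in the platform annotation and 37519 had none. The former were matched by gene number to RefSeq (GRCh38.p14), used for names only. Clusters were kept where at least 2 of 8 arrays lay above their own median, which left 28946, 11560 of them named, for 10797 genes. Where a gene had several clusters, the one brightest on average stood for it.

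Differences were tested with lmFit and eBayes in limma 3.58.1 under R 4.3.3, with Benjamini-Hochberg adjustment over all kept clusters and a threshold of 0.05. The main fit had 2 groups (3 shRNA and 5 plasmid arrays, 6 residual degrees of freedom, a prior of 3.08 degrees of freedom and an SD of 0.18). A fit with the vector as a group of its own (5 residual degrees of freedom) gave vector minus shRNA, TET1 plasmids minus shRNA and TET1 plasmids minus vector, and the lone vector array is assumed there to vary like the others. The fit was tested on simulated data. The number of arrays limits the precision.

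The rule for named genes takes FN1, INSIG1 and TET1, and the 15 highest and 15 lowest named genes called, with no overlap between the arms and the vector array nearer the TET1 plasmids. It adds the 5 highest and 5 lowest called with the vector array nearer the clones, up to 5 called members per direction in each list, and members needed to account for a list. The members, lists and rule were chosen with earlier results of these data known. Lists said to be chosen after their values were seen, and the fit with construct terms, were added later. Alternatives were centring, cyclic loess, other filters, 1 cluster per symbol, another prior, extra terms and leaving out each array.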

Additional observations from a re-analysis of the deposited data

Results flagged for a closer look

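In each of 116 named genes and clusters the 5 plasmid arrays were searched for 1 array far from the other 4, by Dixon's criterion (a gap of more than 0.71 of the group's range). In 14 of 116 (12.1%) an array was past it, and in 12 of these it was the vector array. Chance gives about 1 in 20, but several of the genes were named for where their vector array lay (LIN37, MIR1204, EMC9, CYFIP1 and TRMO) or carry the plasmid's own sequence (TET1), and others were named after their values were seen, so the count is not to be read against chance. The vector array was the low one for LIN37 (9.11, the others 10.01 to 10.34), MIR1204 (6.59, the others 7.57 to 7.94), EMC9 (7.99, the others 8.88 to 8.98) and TET1 cluster 16715048 (5.86, the others 11.80 to 12.10). Mitotic genes with the vector array low were BIRC5 (8.76, the others 9.37 to 9.50), CCNB1 (8.10, the others 8.75 to 8.99), KIF20A (9.25, the others 9.88 to 10.08) and HMMR (8.53, the others 9.66 to 10.04). The box H/ACA protein gene NOP10 (9.10, the others 9.31 to 9.39) and the tRNA methyltransferase gene TRMO (6.00, the others 6.83 to 6.95) had it low as well. It was the high one for CYFIP1 (7.78, the others 7.23 to 7.32) and ASNS (9.32, the others 8.43 to 8.64). Outside the vector array, HORMAD1 was high on TET1-CD (7.50, the others 6.47 to 6.73) and ZNF320 was low on TET1-FL (5.08, the others 5.72 to 5.92).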

How the results depend on the processing

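Counts of calls for plasmid minus shRNA, 691 higher and 544 lower, fell to 293 and 248 with no filter, 11 and 7 with a TET1 plasmid term (vector minus shRNA), and 1 and 0 with TET1 plasmid and TET1 shRNA terms (vector minus control shRNA), where 1 array stands alone on each side and 3927 clusters had an unadjusted p under 0.05. With construct terms, chosen after seeing the data, they were 2126 and 1444. Leaving out 1 array gave 121 to 1410 and 65 to 864. G2/M members called higher, 8, became 4, 0, 0 and 16 under those settings in turn, and 0 to 16 with 1 array left out. Vector minus shRNA, 11 and 7, became 5 and 1 with no filter and 1 to 6 and 0 to 3 with 1 array left out. TET1 plasmids minus shRNA, 1410 and 864, became 851 and 483, and 636 to 1410 and 236 to 864. Clusters 2-fold apart between vector and control shRNA, 604 and 711, became 1052 and 1235 with no filter. With no filter more clusters were tested, and with 1 array left out fewer samples. Centring, cyclic loess, the stricter filter and the other prior kept each plasmid minus shRNA count within 1.5 times. With 1 cluster per symbol, 512 and 449 of 10797 tested clusters were called. The main fit called 246 and 231 of the same genes. Of 116 named genes, 86 were called, and 69 of these stayed so with centring, 83 with loess, 42 with no filter, 82 without the vector array and 20 to 44 without another. Among the 116, signs turned for vector minus shRNA in CDK1 (-0.0915) and CCNB1 (-0.41). For vector minus control shRNA they turned in CDK1 (-0.0845), CCNB1 (-0.36), KIF20A (-0.00911), HMMR (-0.11) and PLK2 (-0.15). None of these genes was called. Over the whole G2/M list, 16 of 30 members were above 0 for vector minus shRNA, against 28 for plasmid minus shRNA. No paired analysis was possible because the labels give no replicate numbers shared between the arms. Signal near an array's median limits the size of differences such as that of GNAS-AS1, whose clones lay below it.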

Other observations

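Several genes that the report does not describe were called in every fit that left out 1 array, and are named after their values were seen. On the higher side these included EEF1A2, the translation elongation factor form of muscle and neurons, which read 8.14, 8.06 and 7.67 on the clones and 8.85, 9.05, 8.98, 9.18 and 9.39 on the plasmid arrays (1.13). COX8C, a testis form of a cytochrome oxidase subunit, read 4.70, 4.84 and 4.30 against 5.53, 6.04, 5.80, 6.01 and 6.04 (1.27), with every clone below its array's median. On the lower side MEIS2, a homeobox partner of HOX proteins, read 8.10, 7.84 and 8.08 against 7.09, 7.29, 7.29, 7.05 and 7.02 (-0.86), and PON2, an intracellular lactonase, 8.77, 8.79 and 8.87 against 8.23, 7.90, 8.07, 7.99 and 7.86 (-0.80). The named genes called in all 8 of these fits numbered 25 higher and 8 lower. NEU1, a lysosomal sialidase, was the called member of its list between the TET1 plasmids and the vector array, at 7.44, 7.45 and 7.41 on the clones, 7.27 on the vector array and 8.65, 8.43, 8.74 and 8.59 on the TET1 plasmids.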
